A study of Caenorhabditis elegans with 4 samples.

Results

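Collagen is modified inside the endoplasmic reticulum (ER) before it is secreted, and 4 genes of this step were followed in embryonic muscle cells of C. elegans. They were chosen by name as dpy-18, phy-2, pdi-2 and let-268, and all 4 were found among the 14463 genes counted. The libraries came from body-wall muscle cells of embryos at the 1.5-fold stage, with 2 libraries from the wild-type strain MLC2232, lucEx1207(myo-3p::YFP), and 2 from the mutant MLC2277, which carries the same transgene and mir-1(luc108), a deletion of the mir-1 hairpin on chromosome I. Both strains thus express YFP from the promoter of a muscle myosin gene on an extrachromosomal array, and 5000 YFP-positive cells were sorted for each library. The mRNA was profiled with QuantSeq, which reads the 3′ end of each poly(A) transcript, and copies made by amplification were removed by unique molecular identifiers (UMIs). The comparison asks how the absence of miR-1, a microRNA of muscle, changes the transcripts of these enzymes. The authors name the libraries of a genotype biological duplicates. They are called wild type and mutant here. The genotypes rest on the labels, since counts of mir-1 were not used here.

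Prolyl 4-hydroxylase converts prolines of the collagen repeats to hydroxyproline, which keeps the triple helix stable. The enzyme is built of catalytic alpha subunits, which dpy-18 and phy-2 encode in C. elegans, and of a beta subunit, the protein disulfide isomerase PDI-2, which keeps the alpha subunits soluble and also forms disulfide bonds in other proteins. Worms without dpy-18 are short and fat because the cuticle collagens are undermodified, and loss of both alpha subunits, or of pdi-2, is lethal to the embryo. let-268 encodes a lysyl hydroxylase. In C. elegans it is needed for the secretion of type IV collagen, the basement membrane collagen that body-wall muscle makes from emb-9 and let-2 and that accumulates inside muscle cells when the enzyme is missing. The other large users of prolyl 4-hydroxylase are the hypodermal cells, which secrete the cuticle collagens.

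In the annotation of WBcel235, dpy-18 (WBGene00001077) lies on the minus strand of chromosome III from 11372886 to 11377980 and has a single annotated 3′ end with a 3′UTR of 159 bp. phy-2 (WBGene00004025) lies on the minus strand of chromosome IV from 12211097 to 12215987, with a 3′UTR of 115 bp. pdi-2 (WBGene00003963) lies on the plus strand of the X chromosome from 4524155 to 4526536 and has 2 annotated 3′ ends, with 3′UTRs of 228 to 332 bp. let-268 (WBGene00002497) lies on the minus strand of chromosome II from 10033266 to 10039980, with a 3′UTR of 182 bp, and the next gene on its strand, mtcu-2, starts 52 bp downstream. A noncoding gene on the same strand, C07A12.19, overlaps pdi-2, and reads in the overlap can be lost where both genes are in the annotation used for counting. The annotation release used for the counts is not given in the sources used here.

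The 4 libraries held between 245336 and 453341 UMI counts on 10169 to 11916 detected genes, so that 1 UMI count corresponded to 2.27 to 4.27 normalized counts. Normalized counts (CPM) are UMI counts per 1000000 on the 5111 genes left by the low-count filter of edgeR, scaled by TMM factors. Over these genes the second wild-type library was closer to the first mutant library (r = 0.943) than to the other of its genotype (r = 0.927). Genes are not independent replicates, and these correlations are a description. The 13 body-wall muscle markers, among them the myosin gene unc-54 and the titin gene ttn-1, summed to 36536 and 34544 CPM in wild type and to 26514 and 22287 CPM in the mutant. Markers of other tissues were present at lower levels. The summed level was 1815 to 2029 CPM for 10 hypodermal markers, 4764 to 6206 CPM for 8 pharyngeal markers, of which mlc-1 and mlc-2 are also made in body-wall muscle, 491 to 741 CPM for 10 neuronal markers, 115 to 423 CPM for 10 intestinal markers and 7.68 to 28.4 CPM for 5 germline markers that were in the table. The pharyngeal myosin gene myo-2 was between 0 and 33.3 CPM.

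The beta subunit gene pdi-2 was the most abundant of the 4 enzymes in every library, and the others stayed far below it. Its UMI counts were 270 and 428 for wild type, against 532 and 466 for the mutant. These are 1153 and 1096 CPM in wild type and 1209 and 1471 CPM in the mutant. It held rank 116 to 154 among all genes of a library, and it made up 82.5 to 89.1% of the UMI counts of the 4 enzymes together. Since QuantSeq yields reads from the 3′ end alone, the CPM of different genes were set side by side without division by transcript length.

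dpy-18 was the next in order and the main alpha subunit transcript. Its UMI counts were 26 and 55 for wild type, against 57 and 34 for the mutant, or 111 and 141 CPM against 130 and 107 CPM. The highest and the lowest library were thus 1 of each genotype, and the mutant values lay on both sides of the first wild-type library. The exact 95% Poisson intervals, which cover counting error only, ran from 72.5 to 163 CPM in the first wild-type library and from 74.3 to 150.0 CPM in the second mutant library.

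phy-2, the gene of the other alpha subunit, was counted 6 and 20 times in wild type and 35 and 13 times in the mutant. The levels were 25.6 and 51.2 CPM in wild type and 79.5 and 41.0 CPM in the mutant, with the lowest value in a wild-type library, the highest in a mutant library and the remaining wild-type value above the remaining mutant one. The order of these 4 levels was also the order of the total UMI counts of the libraries, and the part of depth in it was not tested. let-268, the lysyl hydroxylase gene, was counted 14 and 13 times in wild type and 21 and 10 times in the mutant, or at 59.8 and 33.3 CPM against 47.7 and 31.6 CPM. Each mutant library of let-268 lay below the first wild-type library, and the groups overlapped. The order of phy-2 and let-268 was not settled at this depth. let-268 was the higher of the pair in the first wild-type library and phy-2 in the others, and their Poisson intervals overlapped in each library.

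**Figure D1:**
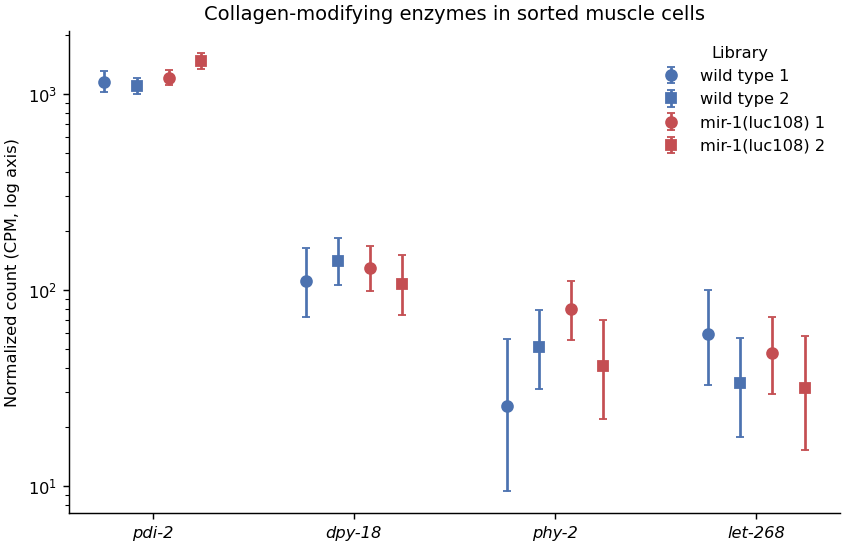
Normalized counts (CPM, log axis) of pdi-2, dpy-18, phy-2 and let-268 in each of the 2 wild-type (blue) and 2 mutant (red, mir-1(luc108)) libraries, with circles for the first and squares for the second library of a genotype and bars for exact 95% Poisson intervals of the count. pdi-2 lies between 1096 and 1471 CPM in all libraries, dpy-18 between 107 and 141 CPM, and the intervals of phy-2 and let-268 overlap.

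No difference between the genotypes passed the threshold for any of the 4 enzymes. In the quasi-likelihood test of edgeR, with p-values adjusted by Benjamini-Hochberg over all genes tested, 0 of the 4 had an adjusted p below 0.05, and 0 had an unadjusted p below 0.05. DESeq2 gave 0 in either of its fits, with and without its fold change prior. It called 0 of all 14463 genes in both. Its 0 for these 4, and for each group of genes below, thus adds no separate information. The background was as sparse, with 3 of 5111 genes (0.0587%) past the threshold by edgeR, 0.0196% of all genes being higher and 0.0391% lower in the mutant, and 8.2% with an unadjusted p below 0.05. With 2 libraries per genotype, the intervals of the differences are the more informative values.

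For pdi-2 the estimate was 19.1% higher in the mutant, a log2 fold change of 0.25 (standard error, SE, 0.19, edgeR adjusted p = 0.808), and its 95% interval ran from a fold of 0.898 to 1.58. The means were 1124 ± 39.9 CPM (SD, n = 2) for wild type against 1340 ± 185 CPM (SD, n = 2) for the mutant. Both mutant libraries were above both wild-type libraries. The same held for 19.5% of all genes tested, and for 38.3% when either direction is counted, and the size of the difference rested mainly on the second mutant library. Without that library the log2 fold change was 0.10.

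For dpy-18 the log2 fold change was −0.10 (SE 0.27, edgeR adjusted p = 0.967), with a 95% interval from a fold of 0.628 to 1.39. The means were 126 ± 21.1 CPM (SD, n = 2) for wild type against 118 ± 15.7 CPM (SD, n = 2) for the mutant, closer to each other than the libraries of either genotype. Its sign changed when the second wild-type library (0.097) or the second mutant library (0.016) was left out.

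phy-2 had the largest estimate of the 4, a log2 fold change of 0.60 (SE 0.42, edgeR adjusted p = 0.782), and an interval from a fold of 0.829 to 2.78. The means of 38.4 ± 18.1 CPM (SD, n = 2) for wild type against 60.3 ± 27.2 CPM (SD, n = 2) for the mutant differed by less than the SD of the mutant libraries. Its size depended on which library was left out. Without the first mutant library the log2 fold change was −0.0046, and without the second wild-type library it was 1.27.

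let-268 had a log2 fold change of −0.11 (SE 0.43, edgeR adjusted p = 0.977). With 58 UMI counts over all libraries and n = 2 per genotype its interval was wide, from a fold of 0.496 to 1.73. Differences within these bounds could not be told apart. The means were 46.5 ± 18.7 CPM (SD, n = 2) for wild type against 39.6 ± 11.4 CPM (SD, n = 2) for the mutant. Without the first wild-type library the sign turned and the log2 fold change was 0.29, and it was 0.11 without the second mutant library.

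DPY-18 and PHY-2 can form prolyl 4-hydroxylase with PDI-2 together or separately. The share of dpy-18 in the counts of both does not depend on the total count of a library. dpy-18 supplied 81.3% (26 of 32 counts, exact Clopper-Pearson 95% interval 63.6 to 92.8%) and 73.3% (55 of 75, 61.9 to 82.9%) of the alpha subunit counts in wild type. In the mutant it supplied 62.0% (57 of 92, 51.2 to 71.9%) and 72.3% (34 of 47, 57.4 to 84.4%). dpy-18 was thus the larger part in every library, and both mutant libraries were lower than both wild-type libraries. The gap between the nearest libraries was small, and their intervals overlapped. The mean share was 77.3 ± 5.60% (SD, n = 2) for wild type against 67.1 ± 7.34% (SD, n = 2) for the mutant, a difference of −10.1 percentage points (exact two-sided permutation test, p = 0.333, the smallest that 2 libraries per genotype allow). It was −4.95 points without the first mutant library and −15.3 without the second.

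The transcripts of the beta subunit exceeded those of the alpha subunits in every library. pdi-2 had 8.44 and 5.71 counts per alpha subunit count in wild type and 5.78 and 9.91 in the mutant. The lowest ratio was thus in wild type and the highest in the mutant, with the rest interleaved, and the genotypes did not differ beyond the spread (means 7.07 ± 1.93 and 7.85 ± 2.92, SD, n = 2 each, and exact two-sided permutation test on the log2 ratio, p = 0.667). The difference in log2 ratio was 0.13, and it was −0.16 without the second wild-type library and −0.26 without the second mutant library.

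**Figure D2:**
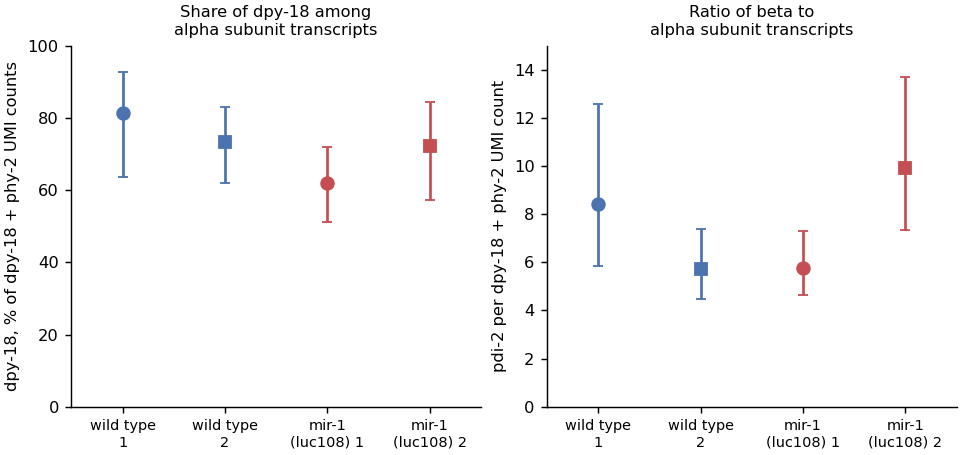
Share of dpy-18 in the summed UMI counts of dpy-18 and phy-2 (left, percent) and UMI counts of pdi-2 per count of dpy-18 and phy-2 (right, ratio), by library, with wild type in blue, mutant in red and bars for exact 95% intervals of counting error. dpy-18 makes up 62.0 to 81.3% of the alpha subunit counts, and the ratio of pdi-2 lies between 5.71 and 9.91 with both genotypes mixed.

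The collagen IV genes encode the muscle substrate of these enzymes. let-2, which encodes an alpha chain of collagen IV, was at 4935 and 4413 CPM in wild type and at 3438 and 2996 CPM in the mutant. emb-9, which encodes the other alpha chain, was at 1866 and 1601 CPM against 1375 and 1323 CPM. Both mutant libraries were lower than both wild-type libraries for each gene, as they were for 18.9% of all genes tested. The log2 fold changes were −0.54 (SE 0.21, edgeR adjusted p = 0.473) for let-2 and −0.36 (SE 0.19, edgeR adjusted p = 0.687) for emb-9, and neither passed the threshold.

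The enzymes were also counted against this substrate. For 100 UMI counts of emb-9 and let-2 together, pdi-2 had 16.9 (exact 95% interval of counting error 14.8 to 19.3) and 18.2 (16.4 to 20.2) counts in wild type. It had 25.1 (22.8 to 27.6) and 34.1 (30.6 to 37.9) in the mutant. Both mutant libraries were thus above both wild-type libraries, as they were by this ratio for 57.8% of 5109 tested genes. The normalized level of collagen IV, the denominator, was 6801 and 6014 CPM in wild type against 4812 and 4319 CPM in the mutant. The calreticulin gene crt-1, for example, had 19.0 and 16.3 counts per 100 in wild type and 25.5 and 27.3 in the mutant, and hsp-3, which encodes an ER chaperone of the BiP type, 7.22 and 8.13 against 11.1 and 10.8. The separation is therefore not particular to pdi-2. The means were 17.6 ± 0.904 and 29.6 ± 6.33 (SD, n = 2 each), a difference of 12.0 counts per 100 (exact two-sided permutation test, p = 0.333, the smallest possible here). Without the second mutant library the difference was 7.53, and without the first it was 16.5. The alpha subunits had 2.01 and 3.19 counts per 100 of collagen IV in wild type and 4.34 and 3.44 in the mutant. let-268 had 0.879 and 0.554 in wild type and 0.992 and 0.731 in the mutant, with the genotypes overlapping.

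The summed level of the body-wall muscle markers was lower in both libraries in which this ratio was higher. Of the 13 markers, all of which passed the filter, 12 had mutant libraries that both lay below the wild-type ones, as 18.9% of all genes tested did. The median log2 fold change of the 13 was −0.56, against 0.0030 over all genes tested. Collagen IV kept close to the muscle markers, at 18.6 and 17.4% of their summed CPM in wild type and at 18.2 and 19.4% in the mutant. pdi-2 was at 3.15 and 3.17% of them in wild type and at 4.56 and 6.60% in the mutant. A gene at the same CPM in all libraries would also have a higher percentage in the mutant. The share of all genes whose percentage parts by genotype was not counted. In sorted cells, fewer muscle cells and less muscle RNA per cell cannot be told apart, and the part of either in the ratio of pdi-2 to collagen IV was not tested. The hypodermal markers, whose cells also use pdi-2, were at 1844 and 2029 CPM in wild type and at 1831 and 1815 CPM in the mutant.

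**Figure D3:**
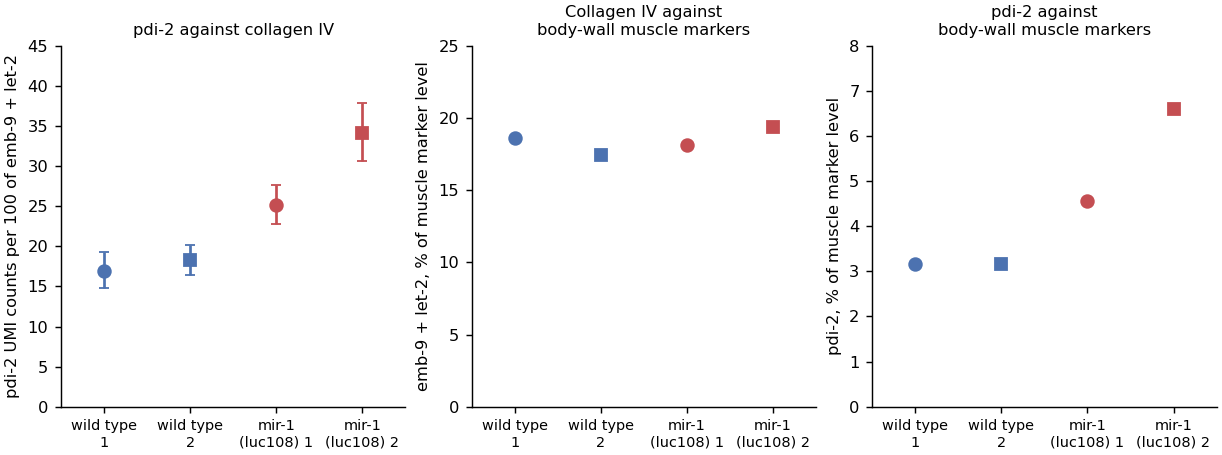
UMI counts of pdi-2 per 100 counts of emb-9 and let-2 (left, with exact 95% intervals of counting error), and the CPM of collagen IV (middle) and of pdi-2 (right) as percent of the summed CPM of 13 body-wall muscle markers, by library, with wild type in blue and the mutant in red. pdi-2 per 100 collagen IV counts is 16.9 and 18.2 in wild type and 25.1 and 34.1 in the mutant, and collagen IV is between 17.4 and 19.4% of the muscle markers.

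The cuticle collagens, the hypodermal substrate of prolyl 4-hydroxylase, were present in these sorts as well. The 3 most abundant of the named cuticle collagens, dpy-17, dpy-14 and sqt-3, were at 1372 to 1951 CPM across the libraries, a range that overlaps that of emb-9. Of 19 named cuticle collagens, 16 were in the table and 7 passed the filter, with a median log2 fold change of 0.051 and 0 past the threshold. Their log2 fold changes were −0.039 (SE 0.19) for dpy-17, 0.023 (SE 0.21) for dpy-14, 0.051 (SE 0.19) for sqt-3 and 0.042 (SE 0.21) for dpy-10. Of 94 genes with col- names, 20 passed the filter. All 20 had a negative log2 fold change, with a median of −1.16, against 0.0030 over all genes tested. Without the second wild-type library 14 of 19 were negative and the median was −0.20. None of them passed the threshold in edgeR or DESeq2 (0 each, with 13 and 9 at an unadjusted p below 0.05), but 14 of the 29 that could then be tested did in edgeR without the first wild-type library, where 1.09% of all genes tested were called. The summed level over all 94 was highest in the second wild-type library, at 4623 CPM against 1818 to 2241 CPM in the others. That library was the only wild-type one left in the run with 14 calls. Those calls thus cannot separate the genotype from that library, and no conclusion is drawn from them. The most abundant col- genes were col-76 with a log2 fold change of −0.17 (SE 0.24), col-3 with −1.16 (SE 0.31), col-165 with −0.29 (SE 0.24) and col-74 with −0.15 (SE 0.23). For dpy-18 the second wild-type library held the highest level, 141 CPM. Its Poisson interval, 106 to 183 CPM, overlapped that of every other library, so this order was not settled. phy-2, pdi-2 and let-268 were highest in other libraries. How far hypodermal cells contributed to the levels of the enzymes was not tested.

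Among the other ER enzymes and chaperones, no gene passed the threshold either. The table held 18 such genes, of which 15 passed the filter, 10 had a positive and the others a negative log2 fold change, and the median was 0.026. edgeR called 0 of them, and DESeq2, which called 0 of all genes, 0 as well. The prolyl isomerase gene cyn-6 was the only 1 of the 15 with an unadjusted p below 0.05 in edgeR. Over all genes tested 8.2% had one. Of the protein disulfide isomerase family and ero-1, an ER oxidase, 6 were tested. pdi-6 had a log2 fold change of 0.25 (SE 0.21), pdi-3 of 0.16 (SE 0.20), C14B9.2 of 0.026 (SE 0.25) and pdi-1 of 0.00012 (SE 0.28). pdi-2, at 1096 CPM or more, was more abundant in each library than pdi-3, the next of the family, at 359 to 442 CPM. pdi-3 and pdi-6, like pdi-2, were higher in both mutant libraries, as were 19.5% of all genes tested. dnj-27 was lower in both, as were 18.9% of all genes tested, and pdi-1, C14B9.2 and ero-1 overlapped between the genotypes.

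Prolyl isomerases turn the peptide bonds before proline, which is slow in collagen folding, and 5 of them were tested. cyn-6, a cyclophilin-type isomerase, was at 124 and 105 CPM in wild type and at 157 and 199 CPM in the mutant. Both mutant libraries were thus above both wild-type libraries, as they were for 19.5% of all genes tested. Its log2 fold change was 0.64 (SE 0.26, edgeR adjusted p = 0.515). The values of cyn-5, fkb-5 and fkb-3 were 0.050 (SE 0.19), 0.13 (SE 0.22) and −0.15 (SE 0.32). Among the general ER chaperones, 4 passed the filter, with log2 fold changes of 0.090 for the calreticulin gene crt-1, 0.037 for hsp-3, 0.0022 for enpl-1 and −0.055 for the calnexin gene cnx-1. hsp-4, the BiP gene induced by ER stress, was counted 2 and 4 times in wild type and 10 and 4 times in the mutant, too few for the filter.

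The genes of export from the ER and of later collagen processing had 0 calls among 6 and 5 tested in edgeR, and 0 at an unadjusted p below 0.05. DESeq2, which called 0 of all genes, called 0 of these. In export, the small GTPase gene sar-1 had a log2 fold change of 0.30 (SE 0.22), tfg-1 of 0.13 (SE 0.23), and the COPII coat genes sec-23 and sec-24.1 of 0.65 (SE 0.33) and −0.27 (SE 0.27). In processing, the proprotein convertase gene bli-4 had −0.075 (SE 0.24), the thioredoxin-like gene dpy-11 −0.38 (SE 0.22), the metalloprotease gene dpy-31 −0.052 (SE 0.33) and the dual oxidase gene bli-3 0.30 (SE 0.39). Of 8 other genes of the basement membrane, all passed the filter and 0 were called, with a median of −0.030. The SPARC gene ost-1 had −0.39 (SE 0.21), the laminin genes lam-1 and lam-2 0.042 (SE 0.19) and −0.084 (SE 0.21), and the perlecan gene unc-52 −0.32 (SE 0.21). Over collagens and basement membrane together 37 genes were tested. An unadjusted p below 0.05 in edgeR was found for 14, let-2 and 13 col- genes, and for 8.2% of all genes tested. The median log2 fold change of the col- genes was −1.16, and −0.20 without the second wild-type library. The other members of the prolyl 4-hydroxylase family in worms, phy-3 and phy-4, were at 3.16 CPM or less in all libraries.

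**Figure D4:**
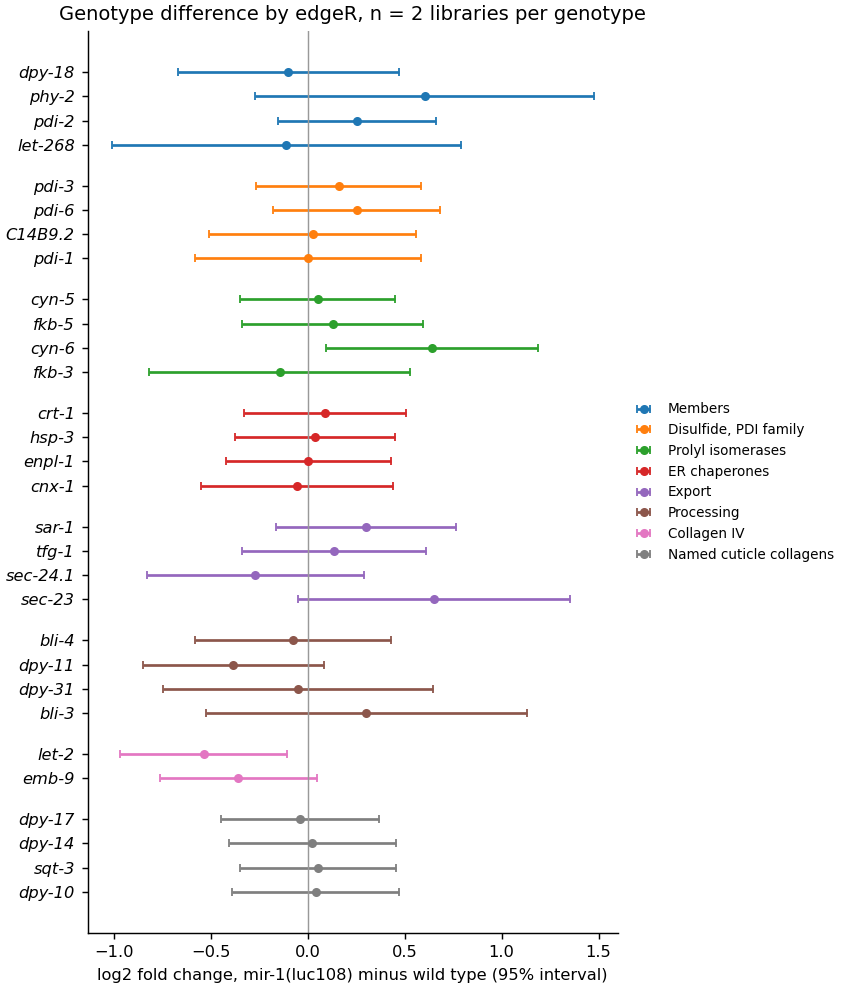
Log2 fold changes between the mutant and the wild type from edgeR (horizontal axis, points) with 95% intervals (bars, n = 2 libraries per genotype) for the 4 enzymes and for the most abundant genes of each group. The intervals of all 4 enzymes include 0, those of phy-2 and let-268 are the widest of the 4, and the collagen IV genes let-2 and emb-9 lie at −0.54 and −0.36.

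The genes whose pattern over the 4 libraries was nearest to each enzyme were found by the root mean square difference of centred log2 CPM. For pdi-2 these were R05D7.1 (0.015), T09A12.5 (0.022) and the Frizzled receptor gene mig-1 (0.029), and 193 genes lay within 0.1 of it. For dpy-18 they were C08F1.11 (0.020), the small GTPase gene rab-10 (0.023) and cpd-1 (0.024), with 148 genes within 0.1. For let-268 they were F08B4.7 (0.019), ril-2 (0.023) and the aldehyde dehydrogenase gene alh-1 (0.029), with 37 within 0.1. phy-2 stood more apart, with F54D1.6 (0.041) as the only gene within 0.1, followed by rnp-6 (0.12) and F46H5.4 (0.12). With 4 libraries many genes share a pattern, and these distances are a description.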

How the data were processed

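The deposited values are UMI counts per gene. The authors made them with UMI-tools, which handled the identifiers and removed duplicates, STAR, which aligned trimmed reads to WBcel235, and HTSeq, and did not normalize them; versions are not given in the sources used here. Each column was assigned to a sample by its label. Genotypes were compared over 4 libraries with edgeR 4.0.16 in R 4.3.3, using the quasi-likelihood test, TMM factors and filterByExpr with a minimum count of 10. Adjustment was by Benjamini-Hochberg over all genes tested, with a threshold of 0.05. The test was tested on simulated counts. DESeq2 1.42.0 was an alternative, beside other scaling, filters, a replicate block and leaving out each library. Likeness used log2 CPM with a prior count of 2. Coordinates are from the Ensembl annotation of the same build.

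The members and lists were chosen with earlier results of these data known. Genes named were the 4 enzymes, both collagen IV genes, the 4 most abundant of each pathway list and the 3 nearest patterns; the few others were named after their values were seen. The ratios to collagen IV and to muscle markers and the list medians with single libraries left out were added after the counts were seen. No sequence was used here, so miR-1 sites in the 3′UTRs were not examined.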

Additional observations from a re-analysis of the deposited data

How the results depend on the processing

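None of the 4 enzymes passed the threshold under any alternative run, and pdi-2 kept its positive sign in all 11, with log2 fold changes between 0.10 and 0.38 and adjusted p between 0.465 and 1.000. With single libraries left out, the log2 fold change of dpy-18 ranged from −0.27 to 0.097, that of phy-2 from −0.0046 to 1.27, that of let-268 from −0.56 to 0.29 and the difference in log2 ratio of pdi-2 to the alpha subunits from −0.26 to 0.51. The difference in pdi-2 per 100 collagen IV counts ranged from 7.53 to 16.5, and that in the share of dpy-18 from −15.3 to −4.95 percentage points. phy-2 and let-268 were too rare for a minimum count of 20. The number of genes called, 3, was 5 with RLE size factors, 63 without a filter, 12 with a minimum count of 20, 0 with DESeq2 with or without its prior (0 and 0), and 0 to 66 with single libraries left out (66 and 0 when the first or second library of wild type was omitted, 0 and 15 for those of the mutant); the cause was not tested. A genotype left with 1 library was assumed to vary like the other. Libraries that share a number are not paired by any label, and over genes their departures from the mean of the genotype had a correlation of 0.013. With the replicate block 87 genes were called, and pdi-2 had a log2 fold change of 0.25 (adjusted p = 0.465). Depth limits phy-2 and let-268 most, with 6 to 35 counts a library.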
